A study of Homo sapiens with 2 samples.

Results

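The 10 genes described here encode the NF-kappaB subunits RELA, RELB, NFKB1 and NFKB2, the inhibitors NFKBIA, NFKBIB, NFKBIE and NFKBIZ, the ubiquitin-editing feedback enzyme TNFAIP3 and the kinase IKBKB. They were chosen by name: all 20 probe sets whose single gene symbol in the platform annotation was among these 10 genes were taken, out of 19775 named genes on the array. RNA came from HARA-B4, a subline of HARA with a strong tendency to metastasise to bone, and from HARA itself, an established human line of squamous cell lung cancer. Both lines were grown in RPMI 1640 medium with 10% FBS, 50 units/ml of penicillin and streptomycin, 5% CO2 and 37 degrees, and the labels name no cytokine or other stimulus. Each line was measured on 1 Affymetrix array (n = 1), so no p-value or replicate error can be given, and a value from 1 culture of each line says nothing of the spread between cultures.

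NF-kappaB factors are dimers of Rel-family subunits that are held in the cytoplasm by IkappaB proteins. In the canonical route, inflammatory receptors activate the IKK kinase complex, IKBKB phosphorylates IkappaB, and the released dimers of RELA and the NFKB1 product enter the nucleus; in the alternative route, NFKB2 is processed and pairs with RELB. Several of the inhibitors are themselves NF-kappaB target genes, so that NFKBIA and TNFAIP3 transcripts rise when the pathway is active and then restrain it, a loop known from many epithelial cells.

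Promoters of NFKBIA, TNFAIP3, NFKBIZ and NFKB1 are shown because kappaB sites near the start are the known basis of the feedback loop. They are the 250 bases before an annotated transcription start (RefSeq, GRCh38.p14), 5' to 3' on the strand of the gene, with each match to the kappaB consensus in capitals. NFKBIA lies on the minus strand at chr14:35404750-35404999, and the others on the plus strand at chr6:137867009-137867258 (TNFAIP3), chr3:101827740-101827989 (NFKBIZ) and chr4:102501109-102501358 (NFKB1). For NFKBIZ and NFKB1 the more upstream of the listed starts is shown.
NFKBIA: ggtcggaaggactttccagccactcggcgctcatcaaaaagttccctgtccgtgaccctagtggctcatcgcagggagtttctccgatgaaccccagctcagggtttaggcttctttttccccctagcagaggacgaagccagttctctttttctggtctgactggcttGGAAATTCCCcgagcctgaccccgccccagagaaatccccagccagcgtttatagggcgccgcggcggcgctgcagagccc
TNFAIP3: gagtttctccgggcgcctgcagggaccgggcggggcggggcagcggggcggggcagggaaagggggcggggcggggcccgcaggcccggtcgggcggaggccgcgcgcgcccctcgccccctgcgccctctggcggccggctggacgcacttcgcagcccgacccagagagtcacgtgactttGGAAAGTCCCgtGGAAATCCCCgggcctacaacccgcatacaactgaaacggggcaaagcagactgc
NFKBIZ: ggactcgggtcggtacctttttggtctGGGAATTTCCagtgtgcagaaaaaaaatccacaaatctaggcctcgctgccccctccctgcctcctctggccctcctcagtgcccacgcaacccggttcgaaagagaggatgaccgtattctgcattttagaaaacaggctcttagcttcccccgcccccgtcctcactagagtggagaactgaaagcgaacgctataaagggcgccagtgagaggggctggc
NFKB1: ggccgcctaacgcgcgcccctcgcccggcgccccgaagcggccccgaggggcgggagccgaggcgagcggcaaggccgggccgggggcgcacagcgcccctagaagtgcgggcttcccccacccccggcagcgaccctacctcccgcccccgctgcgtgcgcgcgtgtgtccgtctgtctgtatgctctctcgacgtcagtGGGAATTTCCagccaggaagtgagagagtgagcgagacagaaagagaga
The match starts 81 bases before the start in NFKBIA (GGAAATTCCC), 223 bases in NFKBIZ and 49 bases in NFKB1 (GGGAATTTCC in both), while TNFAIP3 holds a pair of matches, 67 and 55 bases before the start. Promoter windows were listed for 7 of the 10 genes, with 13 windows in all. A match to the kappaB consensus, 10 letters long and searched on both strands with overlaps allowed and no other motif tried, was found in 8 of these 13 windows and in 6 of the 7 genes, RELA being the exception. Of 35114 windows of the same length over all genes, 9.96% held a match. The window at the other start of NFKBIZ held a match, and that of NFKB1 held none. Windows of some target genes were searched too: CXCL1 held matches, while CXCL8, PTGS2, IL1A and IL1B held none. The pattern was GGGRNNYYCC, with R for A or G, Y for C or T and N for any letter. Stretches that depart from it, such as tggaatttcc in CXCL8 and gggactaccc in PTGS2, were not counted. A window without a match may thus still hold a kappaB site. A match is a run of letters, not a measured binding site.

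The arrays stood at similar levels. The middle signal over all probe sets was 16.2 in HARA-B4 and 17.3 in HARA, and ACTB, GAPDH, PPIA, TBP, HPRT1, GUSB and B2M differed by -0.07 to 0.33 (log2, HARA-B4 minus HARA, as all differences here). All 9 measured squamous markers were above background on both arrays, with KRT5, a basal keratin, at 4504 in HARA-B4 and 4723 in HARA. The lines were not alike in these markers: 3 of the 9 (33.3%) passed 2-fold on the side of HARA-B4, against 3.62% of all genes, namely KRT15 at 1.997, PKP1 at 1.82 and KRT16 at 1.16. The median of the 9 was 0.69, and DSC3 was the lowest at -0.98. The dimmer probe sets of DSC3 gave -1.36, past 2-fold lower in HARA-B4, and -0.85, but the counts use the brightest probe set. Of 21 measured markers of blood, endothelial, fibroblast, glandular lung, neuroendocrine and bone cells, 4 were above background in HARA-B4 and 5 in HARA. Their summed signal was 340.4 in HARA-B4 and 352.1 in HARA, and PTPRC, CDH5, COL1A2, DCN and SP7 were below background on both arrays. CD79A (55.2 in HARA-B4 and 63.4 in HARA), PECAM1 (50.4 and 50.6), HBB (33.9 and 35.7) and SFTPB (56.1 and 43.7), with HARA-B4 given before HARA in each pair, were above background on both, and SFTPC (25.4 and 36.8) in HARA only. Background was a signal of 27.2, the level under which 95% of the values of olfactory, taste and vomeronasal receptor probe sets fell.

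NFKBIA was the only gene of the 10 counted at 2-fold, and it was lower in HARA-B4. Its brightest probe set gave a signal of 162.1 in HARA-B4 and 847.6 in HARA, a difference of -2.39, or 5.23-fold. The 8 others above background on both arrays differed by less than 0.5, and NFKB2 was below background in HARA-B4. Over all 11493 genes above background on at least 1 array, 7.82% differed by at least 2-fold, 4.2% being lower and 3.62% higher in HARA-B4, so 1 gene of 10 is close to what the whole array gives. The size of the NFKBIA difference was rarer: it ranked 47 from the lowest of the 11493 genes, and 0.731% of genes had a difference as large in either direction. Of the 10 genes 8 had a difference below 0, against 48.5% of all genes, and their median was -0.32, against 0.01 for all genes. A spread for judging these sizes comes from the 4829 genes measured above background by more than 1 probe set, whose differences had a within-gene SD of 0.30. This is spread between probe sets of a gene on the same arrays, pooled over all levels above background. It does not hold the error between arrays or between cultures. Of the 9 genes above background on both arrays, 2 (RELA and RELB) had a difference smaller than this SD, 6 had one between 1 and 2 such SDs, and NFKBIA lay beyond.

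**Figure D1:**
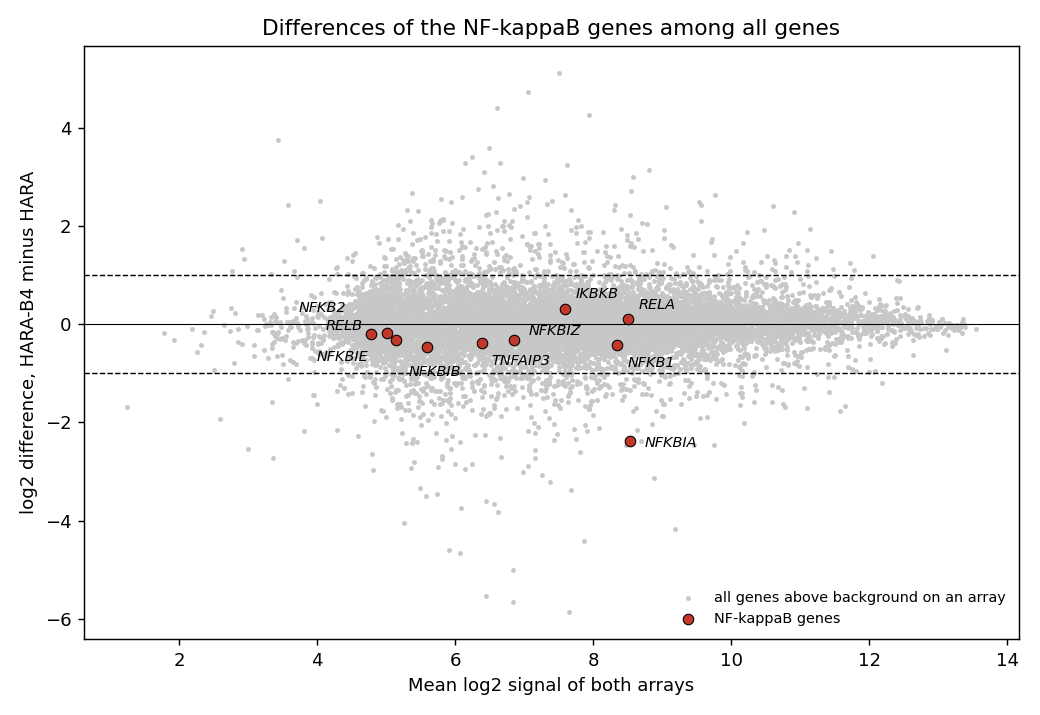
The log2 difference, HARA-B4 minus HARA, is plotted against the mean log2 signal of both arrays for all 11493 genes above background on at least 1 array (grey) and the 10 NF-kappaB genes (red); where a gene is at background on 1 array the difference is a bound, and dashed lines mark 2-fold. NFKBIA lies at -2.39, and the others lie between -0.47 and 0.31.

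The subunits RELA, NFKB1 and RELB differed by less than 0.5, and for NFKB2 there was only a bound. RELA, which carries the transactivation domain of the canonical dimer, had signals of 373.4 in HARA-B4 and 349.2 in HARA on its brighter probe set (difference 0.10), and 115.3 in HARA-B4 and 142.9 in HARA on the other (-0.31). The 2 probe sets thus pointed in opposite directions, by small amounts. NFKB1, which encodes the precursor of the DNA-binding partner of RELA, had 279.3 in HARA-B4 and 374.8 in HARA (-0.42) on its single probe set. The subunits of the alternative route were dim on both arrays. RELB had 30.1 in HARA-B4 and 34.2 in HARA (-0.19), little above background. NFKB2 was above background in HARA only, at 24.1 in HARA-B4 and 31.0 in HARA on its brightest probe set, a bound of at least 1.14-fold lower in HARA-B4. Its other 2 probe sets were below background on both arrays, the brighter with 10.5 in HARA-B4 and 14.8 in HARA.

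The inhibitors differed among themselves in size. NFKBIA encodes IkappaB-alpha, the most rapidly resynthesised inhibitor, and its 5.23-fold difference rests on 1 probe set, since its second probe set was below background on both arrays, at 15.2 in HARA-B4 and 16.9 in HARA. NFKBIZ, which encodes the inducible IkappaB-zeta, an atypical nuclear member that can also activate genes, had 103.2 in HARA-B4 and 128.9 in HARA (-0.32), and 51.6 in HARA-B4 and 61.8 in HARA on the second probe set (-0.26). Both its probe sets were thus slightly lower in HARA-B4. NFKBIE, the gene of IkappaB-epsilon, had 31.6 in HARA-B4 and 39.3 in HARA (-0.31), close to background. NFKBIB, the gene of IkappaB-beta, was the one whose probe sets disagreed most. Its brightest probe set had 41.0 in HARA-B4 and 56.6 in HARA (-0.47). A second had 7.35 in HARA-B4, below background, and 50.8 in HARA, at least 1.87-fold lower in HARA-B4, while the third had 32.7 in HARA-B4 and 26.4 in HARA, the HARA value being below background. The first pair end in _x_at, a suffix for probes that can match other transcripts, and no direction for NFKBIB can be read from these values.

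TNFAIP3, which removes and edits ubiquitin chains upstream of IKK, had 73.4 in HARA-B4 and 95.6 in HARA on its brighter probe set (-0.38), and 42.4 in HARA-B4 and 35.7 in HARA on the dimmer (0.25). Its probe sets pointed in opposite directions, and neither differed by as much as 0.5. IKBKB, the catalytic kinase of the canonical route, had 214.2 in HARA-B4 and 172.4 in HARA (0.31) on its brightest probe set. The 2 dimmer probe sets had 48.1 and 43.5 in HARA-B4 and 40.8 and 42.7 in HARA (0.24 and 0.03), so all 3 were on the side of HARA-B4, the largest by 1.24-fold. Over all genes described, 14 of the 20 probe sets were above background on both arrays, 3 on 1 array and 3 on neither.

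**Figure D2:**
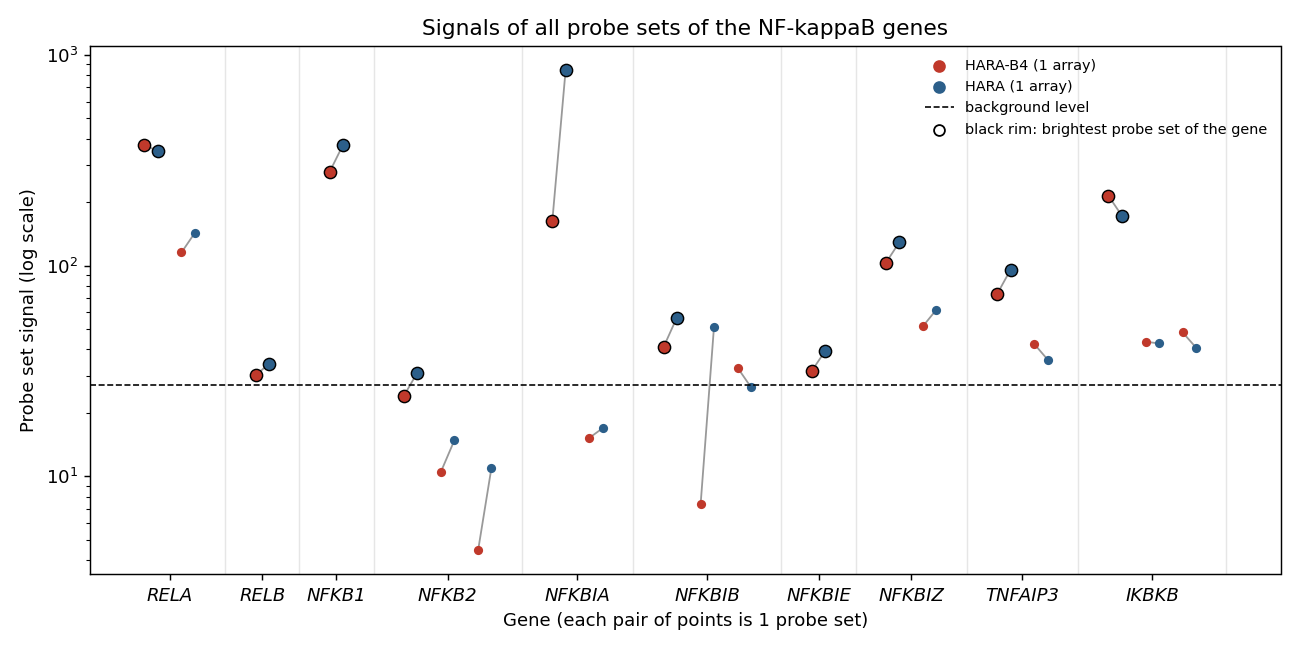
Signals on a log axis are shown for each of the 20 probe sets of the 10 genes, HARA-B4 (red) left of HARA (blue) and joined by a line, with 1 array per line and the background level dashed. The brightest probe set of NFKBIA is the widest gap among pairs with both points above background, at 162.1 in HARA-B4 and 847.6 in HARA.

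NFKBIA lies in a stretch of chromosome 14 in which its neighbours were lower as well. Of the 24 genes nearest to it in RefSeq gene order (12 on each side, above background on both arrays), all 24 had a difference below 0 and 13 were at least 2-fold lower in HARA-B4, with a median of -1.03. The nearest of these 24 on each side, PPP2R3C, a phosphatase regulatory subunit, and RALGAPA1, a Ral GTPase-activating protein subunit, differed by -1.27 and -1.08. None of the 24 was as low as NFKBIA; the lowest was PAX9, a paired box transcription factor, with 81.6 in HARA-B4 and 387.0 in HARA (-2.25), and the highest was PNN, at -0.01. Relative to the median of its neighbours, NFKBIA stood at -1.36. NFKB1 also had lower neighbours: of the 24 genes around it on chromosome 4, 23 had a difference below 0, the median was -0.55, and 16 of them were lower than NFKB1, which stood 0.12 above that median. The nearest before NFKB1 among its 24 neighbours was SLC39A8, a zinc transporter and known NF-kappaB target, at 151.6 in HARA-B4 and 835.8 in HARA (-2.46).

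The other 8 genes had neighbours with medians between -0.23, around NFKBIZ, and 0.20, around NFKB2. NFKBIB was level with the lowest of its 24 neighbours, FAM98C (both -0.47), and with 50 neighbours 2 were lower. It stood at -0.61 from the median of 0.14 of the 24, on a probe set that another of its probe sets does not match in direction. TNFAIP3 stood at -0.49 from its neighbours' median, at -0.86 with 14 neighbours and at -0.38 with 50. Its other probe set pointed in the opposite direction too. The remaining 6 stood within 0.5 of their neighbours' medians, NFKB2 as a bound, among them RELA, with a median of -0.01 around it on chromosome 11, and IKBKB, with a median of 0.00. The part that DNA copy number or any other shared influence plays in these runs was not tested, since only RNA was measured.

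**Figure D3:**
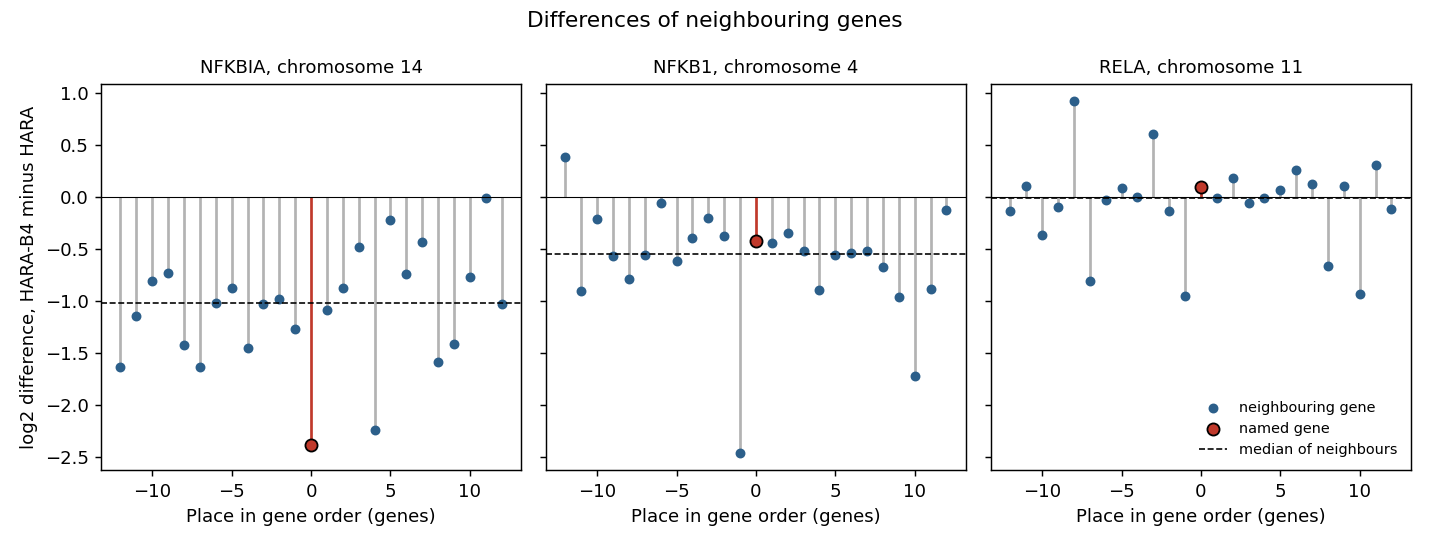
The log2 difference, HARA-B4 minus HARA, is shown for the 24 neighbouring genes (blue) by place in RefSeq gene order around NFKBIA, NFKB1 and RELA (red, place 0), with the median of the neighbours dashed. All neighbours of NFKBIA lie below 0 around a median of -1.03 with NFKBIA below them all, NFKB1 lies near its neighbours' median of -0.55, and RELA near one of -0.01.

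Of 62 genes above background among the other subunits, receptors, adaptors and other negative regulators, 2 (3.23%) were at least 2-fold lower and 0 higher. The shares of all genes were 4.2% and 3.62%, and with counts this small no scarcity can be read from them. Of 9 further subunits, kinases and partners above background, 0 were counted at 2-fold, against 7.82% of all genes, and their median was 0.20. Their brightest genes were TANK, an adaptor that binds TRAF proteins, at -0.31, CHUK, the IKK-alpha kinase, at 0.07, and the related kinase TBK1 at -0.05. The IKK scaffold IKBKG differed by 0.39 and the subunit REL by 0.20. The nuclear inhibitor NFKBID was above background in HARA-B4 only, with signals of 45.2 in HARA-B4 and 20.3 in HARA, at least 1.67-fold higher, a bound that does not settle whether it reached 2-fold. With the background at the 90th percentile of the receptor probe sets it was counted, at 1.16. IKBKB, CHUK and IKBKG, which form the IKK complex, thus differed by 0.31, 0.07 and 0.39, all under 2-fold.

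Of 14 receptors above background, the median difference was -0.12, and 1 (7.14%) was lower by at least 2-fold and 0 were higher, against 4.2% and 3.62% of all genes. The lower one was TLR3, the endosomal receptor for double-stranded RNA, with 21.5 in HARA-B4 and 73.8 in HARA, at least 2.72-fold lower. Its second probe set had 17.5 in HARA-B4 and 62.7 in HARA. A background higher by 1 log2 unit left TLR3 a bound of -0.44, so that it was no longer counted. TNFRSF1A, the main TNF receptor, had 223.2 in HARA-B4 and 227.8 in HARA (-0.03), while IL1RAP, the co-receptor for interleukin-1, had 250.7 in HARA-B4 and 478.0 in HARA (-0.93) and IL1R1 was below background on both arrays. Of 23 adaptors and upstream kinases, the median difference was 0.12, and 1 (4.35%) was lower by at least 2-fold and 0 were higher, against the same shares of all genes. RBCK1, a subunit of the complex that builds linear ubiquitin chains, had 447.9 in HARA-B4 and 1035 in HARA (-1.21). Its 2 dimmer probe sets differed by -0.58 and 0.09, so the size depends on the probe set, and the mean of its probe sets gave -0.57. MAP3K14, the kinase that starts the alternative route, was above background in HARA only, at 17.0 in HARA-B4 and 45.8 in HARA, at least 1.69-fold lower in HARA-B4.

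Of 16 other negative regulators, 0 were counted at 2-fold on their brightest probe set, against 7.82% of all genes, and the median was 0.16. The brightest were TAX1BP1, an adaptor of TNFAIP3, at 1353 in HARA-B4 and 814.0 in HARA (0.73), its partner RNF11 at -0.01, and the phosphatase PPM1B at 0.47. The dimmer probe set of PPM1B differed by -0.22, in the opposite direction, and the mean of its probe sets gave 0.12. TNIP1, which binds TNFAIP3, differed by 0.34 and the deubiquitinase CYLD by -0.66. The ubiquitin ligase ITCH differed by 0.26 on its brightest probe set, but by up to 1.48 on the dimmer ones, all 6 being on the side of HARA-B4, and it was counted at 2-fold higher when probe sets with the suffix _x_at or _s_at were left out.

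Of 49 measured target genes of the pathway, 21 (42.9%) were above background on at least 1 array, against 58.1% of all genes. Of the 21, 4 (19.0%) were lower in HARA-B4 by at least 2-fold and 0 were higher, against 4.2% and 3.62% of all genes, and the median difference was -0.06. The list was chosen with earlier results of these data known, and CXCL1 and IL1A passed the background filter through HARA only. These shares are therefore not a test of the targets as a set. CXCL8, a neutrophil chemokine, had 63.4 in HARA-B4 and 654.5 in HARA (-3.37), and its second probe set 9.57 in HARA-B4 and 146.3 in HARA. CXCL1, a related chemokine, had 17.9 in HARA-B4, below background, and 174.4 in HARA, at least 6.42-fold lower. PTGS2, the inducible cyclooxygenase, had 156.1 in HARA-B4 and 452.7 in HARA (-1.54), and its other probe set differed by -1.76. IL1A, the gene of interleukin-1 alpha, had 9.91 in HARA-B4 and 64.6 in HARA, at least 2.38-fold lower. The IL1A count was lost with the background raised by 1 (-0.25), the mean of probe sets (-0.41) and a pseudocount of 16 (-0.90), and that of CXCL1 with the background at the 99th percentile (-0.88).

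Other targets went both ways, and of the 21 as a whole 12 (57.1%) were below 0 and 9 above, against 48.5% of all genes below 0. IL1B, at 20.4 in HARA-B4 and 47.0 in HARA, was at least 1.73-fold lower and CD83 differed by -0.89. SOD2, the mitochondrial superoxide dismutase, had 145.5 in HARA-B4 and 139.1 in HARA (0.07), and GADD45B differed by -0.19. IER3, an early response gene, had 2267 in HARA-B4 and 1283 in HARA (0.82), and the urokinase gene PLAU 416.1 in HARA-B4 and 255.9 in HARA (0.70). The dimmer probe set of PLAU had 186.4 in HARA-B4 and 83.3 in HARA (1.16). That is past 2-fold higher in HARA-B4, but the counts use the brightest probe set. IL6, TNF, ICAM1, CXCL2 and CCL20 were below background on both arrays.

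**Figure D4:**
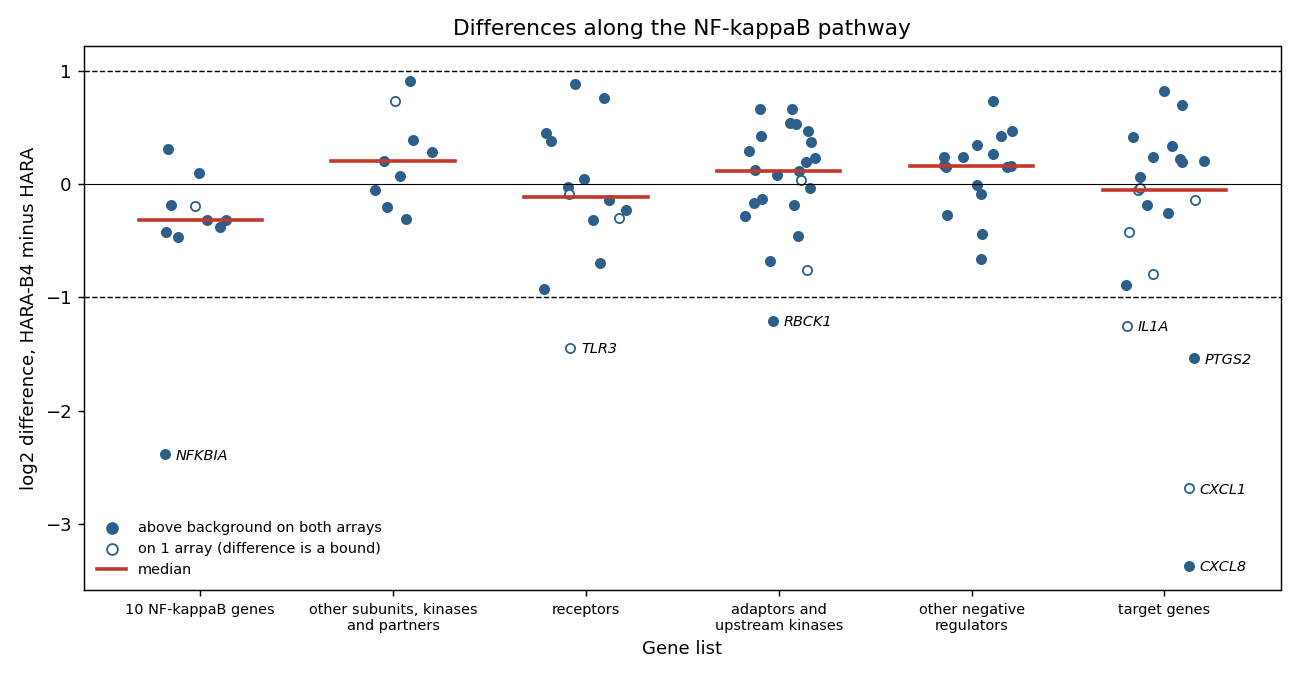
Points are genes above background on at least 1 array, grouped by their place in the pathway, with the log2 difference (HARA-B4 minus HARA) on the vertical axis, open points for bounds, red bars for medians and dashed lines at 2-fold. Genes past 2-fold are named and all 7 are lower in HARA-B4: NFKBIA, TLR3, RBCK1 and the targets CXCL8, CXCL1, PTGS2 and IL1A. Over all genes, 4.2% were at least 2-fold lower and 3.62% at least 2-fold higher.

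Over the whole array, the genes whose pair of signals was most like that of NFKBIA were found by the Euclidean distance between log2 signals on the 2 arrays. The nearest was SLC39A8, the neighbour of NFKB1 named above, at a distance of 0.10. VEGFC, a lymphangiogenic growth factor, followed with 187.0 in HARA-B4 and 834.9 in HARA, then NTS, the neurotensin precursor, with 182.0 in HARA-B4 and 944.3 in HARA. FEZ1 and the semaphorin SEMA3C came next, at distances of 0.45 and 0.49. With 2 arrays, such likeness says no more than that both signals were close.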

How the data were processed

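Total RNA from HARA-B4 and HARA was labelled as biotinylated cRNA, per the labels' protocols. The deposited values were assumed to be intensities of probe sets on a linear scale. They were made with Affymetrix Expression Console, per the submitters' processing notes. The software version, summary algorithm, background correction and scaling target are not stated there, so how low signals were estimated is unknown. The deposited intensity values of the 54675 probe sets were used as log2 values, without rescaling. The mean without the outer 2% was 116.0 in HARA-B4 and 115.6 in HARA, so the levels were close as deposited.

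Of the probe sets, 41097 had 1 symbol in the platform annotation, 1801 several and 11777 none. Names were taken from the first kind, of which 41043 were matched by Entrez ID to RefSeq (GRCh38.p14). A gene was represented by its brightest probe set (mean of the log2 signals). Background was the 95th percentile of 163 receptor probe sets, 4.76 on the log2 scale. Where a gene was at background on 1 array, the background level replaced that value, which makes the fold a lower bound, also within medians. Counts use 2-fold. With 1 array per line no test was possible, and that number limits the precision.

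All 10 genes were named with every probe set, and from each list up to 6 members at 2-fold, or the 3 brightest. Other genes were named after their values were seen. Genes of the lists with no single-symbol probe set are not analysed here. The genes and lists were chosen with earlier results of these data known. Alternatives changed the scaling, background, probe set choice, pseudocount (16) and fold. The scripts were tested on simulated data. Python 3.11.15, pandas 2.3.3 and statsmodels 0.14.6 were used.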

Additional observations from a re-analysis of the deposited data

How the results depend on the processing

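No paired analysis was possible because each line has 1 array. NFKBIA stayed between -2.39 and -2.28 under other scalings, backgrounds and a pseudocount, and was -1.27 with the mean of its 2 probe sets, of which 1 is below background; if probe sets with the suffix _x_at or _s_at are left out it has none above background. The count of the 10 genes at least 2-fold lower was then 0. The number of the 10 genes with a difference below 0 was 4 with the background at the 99th percentile, 5 with it raised by 1 and 3 without the _x_at and _s_at probe sets, where fewer genes are left. NFKBIB turned to 0.27 without those probe sets and RELA to -0.11 with the mean of probe sets. Subtraction of the neighbours' median, chosen after seeing the data, gave -1.36 for NFKBIA and 0.12 for NFKB1. Over all genes, 244 were lower and 206 higher with the 99th percentile background, 1269 and 1174 at 1.5-fold, and 155 and 141 at 3-fold. Of the adaptors and kinases, 2 were lower with the background at the 90th percentile, 0 with the mean of probe sets (RBCK1 -0.57) or at 3-fold, and 3 at 1.5-fold, where 2 were higher. Of the receptors, 0 were lower with the background at the 99th percentile or raised by 1, with the mean of probe sets or at 3-fold, and at 1.5-fold 3 were lower and 2 higher. Of the targets, 2 were lower with the 99th percentile background, without the _x_at and _s_at probe sets and at 3-fold, and 2 were higher at 1.5-fold. Of the other subunits, 1 was higher with the 90th percentile background and 2 at 1.5-fold. Of the negative regulators, 1 was higher without the _x_at and _s_at probe sets, and at 1.5-fold 1 was higher and 1 lower. The median around TNFAIP3 was 0.48 with 14 neighbours. The causes were not tested beyond the changed filters and folds themselves. Of 238 values that answer a comparison, 207 moved little under an alternative and 31 moved, those given here. For counts, little meant within 1.5-fold, and for medians less than the within-gene SD of 0.30. A change of sign was looked for only in values other than counts that were at least 1 in size. Among the medians compared, only the one around NFKBIA was that large, so finding no change of sign says little. Genes near a signal of 27.2 (RELB, NFKB2, NFKBIE, NFKBIB) are limited by background.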

Other observations

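CARD10, BCL10 and MALT1 form a complex that links some receptors to IKK. The scaffold CARD10 had signals of 768.3 in HARA-B4 and 628.8 in HARA (log2 difference 0.29), BCL10 had 781.0 in HARA-B4 and 541.3 in HARA (0.53), and the protease MALT1 had 81.7 in HARA-B4 and 61.1 in HARA (0.42). None reached 2-fold, CARD10 differed by less than the within-gene SD of 0.30, and these genes were picked after their values were seen. SHARPIN, a partner of RBCK1 in linear ubiquitin assembly, had 143.2 in HARA-B4 and 110.4 in HARA (0.37), in the opposite direction to the brightest probe set of RBCK1 (-1.21). In the alternative route, the receptor LTBR differed by -0.32 and the inhibitory adaptor TRAF3 by -0.17.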
